A study of Rattus norvegicus with 16 samples.

Results

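The 10 genes described here make NAD, turn it into NADP or methylate its precursor nicotinamide in liver. They were chosen by name for these roles from 17055 gene symbols: Nampt, Nmnat1, Naprt, Nadsyn1, Kmo, Kynu, Haao, Qprt, Nadk and Nnmt. Of these, 9 were listed under their own symbol, and Naprt under its older symbol Naprt1. All 10 passed the filter on low counts in every comparison. The choice was made with earlier results of these data known.

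Liver mRNA was sequenced from 48 male Sprague-Dawley rats aged 10 weeks as 16 libraries, each a pool of 3 rats, in 4 groups of 4 libraries. In the sepsis groups most of the cecum was tied off and punctured (cecal ligation and puncture, CLP), which lets gut contents into the abdomen, and in the control groups the abdomen was opened, the cecum lifted out and put back, and the wound closed. Tissue was taken after 8 h. All rats were anesthetized throughout, with isoflurane, an inhaled agent, or with propofol, an intravenous agent, and no unanesthetized rat was included. The groups were Isoflurane-Sepsis (libraries 1 to 4), Isoflurane-Control (libraries 5 to 8), Propofol-Sepsis (libraries 9 to 12) and Propofol-Control (libraries 13 to 16). Rats under isoflurane were also induced with isoflurane, those under propofol with ketamine and xylazine, and the libraries of each anesthetic carry their own series of identifiers, so these 3 differences cannot be told apart. The question put to the data was how sepsis changed these genes under each anesthetic, and whether that change differed between the anesthetics.

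NAD is the coenzyme that carries electrons from fuel breakdown to the respiratory chain, and it is also used up by sirtuins, PARP enzymes and CD38, so it must be made again all the time. Cells recover it from nicotinamide by the salvage route, from nicotinic acid by the Preiss-Handler route, and liver also builds it from tryptophan by the kynurenine route, known as de novo synthesis. The liver sends nicotinamide to other organs, and clears the excess by methylation.

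Reads on genes numbered between 14199422 and 49937173 per library. Levels are given as CPM, the reads of a gene scaled to a fixed library size, after TMM scaling, which corrects for differences in library composition. CPM depends on transcript length, so levels are compared between groups and not between genes. All 8 hepatocyte markers (Alb and Apoa1 among them) had reads in every library, with sums between 82065 and 131010 CPM. Library 10 (Propofol-Sepsis) stood apart: 6 brain mRNAs chosen after the data were seen, Snap25 and Gfap among them, summed to 356 CPM there and to between 4.79 and 23.9 CPM in the other 15 libraries. For the 10 genes, fold changes that include this library are therefore also given without it.

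The promoters of the kynurenine-route enzymes are shown because these genes fell together with sepsis. RefSeq promoters on the GRCr8 build were found for 6 of the 10 genes (Nadsyn1, Qprt, Haao, Kynu, Kmo and Nmnat1). The 250 bases before the annotated start are printed 5′ to 3′ on the strand of the gene for Kynu (chr3:48188036-48188285, plus strand), Haao (chr6:16598075-16598324, plus strand), Qprt (chr1:191164007-191164256, minus strand) and Kmo (chr13:90089271-90089520, plus strand), with motif matches in capitals.
Kynu: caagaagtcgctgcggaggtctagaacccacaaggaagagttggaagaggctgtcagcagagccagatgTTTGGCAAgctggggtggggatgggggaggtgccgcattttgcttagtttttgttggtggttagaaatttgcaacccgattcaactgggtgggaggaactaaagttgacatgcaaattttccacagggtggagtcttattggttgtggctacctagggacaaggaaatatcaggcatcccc
Haao: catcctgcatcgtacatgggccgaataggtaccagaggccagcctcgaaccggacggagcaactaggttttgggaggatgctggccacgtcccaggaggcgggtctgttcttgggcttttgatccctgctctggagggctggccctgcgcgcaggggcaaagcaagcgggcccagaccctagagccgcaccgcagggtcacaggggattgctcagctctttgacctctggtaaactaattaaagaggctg
Qprt: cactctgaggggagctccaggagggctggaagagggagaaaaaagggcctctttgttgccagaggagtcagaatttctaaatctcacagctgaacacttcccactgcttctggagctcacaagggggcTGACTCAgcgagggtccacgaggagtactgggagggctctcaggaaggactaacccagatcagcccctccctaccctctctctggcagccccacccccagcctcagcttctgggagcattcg
Kmo: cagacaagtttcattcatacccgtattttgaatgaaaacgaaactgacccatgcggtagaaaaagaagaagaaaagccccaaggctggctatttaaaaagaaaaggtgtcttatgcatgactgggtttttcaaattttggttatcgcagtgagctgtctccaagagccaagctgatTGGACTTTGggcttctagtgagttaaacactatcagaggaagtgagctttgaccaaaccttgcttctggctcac
These windows were searched on both strands for 8 motifs: an E-box (CACGTG), a kB site (GGG and TTCC with NNN between them), a C/EBP site (TTGCNNAA), a STAT site (TTCNNNGAA), an AP-1 site (TGANTCA), a part of an HNF1 site (GTTAAT), a D-box (TTATGTAA) and an HNF4 site (CAAAGTCCA). The 6 promoters held 3 matches, none of which overlapped another. Kynu had the C/EBP letters on the minus strand at -181 to -174, which 9.22% of 33469 promoters hold. Qprt had the AP-1 letters at -122 to -116 (6.34% of promoters), and Kmo had the HNF4 letters on the minus strand at -74 to -66 (0.338% of promoters). Haao, Nadsyn1 and Nmnat1 had no match. The other shares were 5.59% for the E-box, 4.53% for the kB site, 7.67% for the STAT site, 6.45% for the part of the HNF1 site and 0.828% for the D-box. A match describes the letters only.

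Sepsis under isoflurane raised the salvage enzyme Nampt and lowered 8 of the 10 genes, among them all 4 kynurenine-route enzymes and both Preiss-Handler enzymes, and Nnmt did not pass the test. Genes were called at an adjusted p below 0.05 in edgeR's quasi-likelihood test. Of 10361 genes tested, 50.0% were called, 25.7% as higher and 24.4% as lower. The 9 calls among 10 genes stand beside that background of about 5 in 10 as a description only. The 10 genes were chosen with earlier results known. The median log2 fold change was -0.75 over the 10 genes and 0.006 over all genes tested. The 4 sepsis libraries lay wholly outside the range of the 4 controls for 9 of the 10 genes, and for 48.7% of all genes tested.

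Sepsis under propofol raised both Nampt and Nnmt and lowered 6 genes: the 4 kynurenine-route enzymes, Naprt and Nadsyn1. Nmnat1 and Nadk did not pass the test. Of 10348 genes tested, 42.1% were called, 20.4% as higher and 21.7% as lower. The median log2 fold change was -0.54 over the 10 genes and -0.002 over all genes. Groups did not overlap for 8 of the 10 genes and for 42.2% of all genes.

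**Figure D1:**
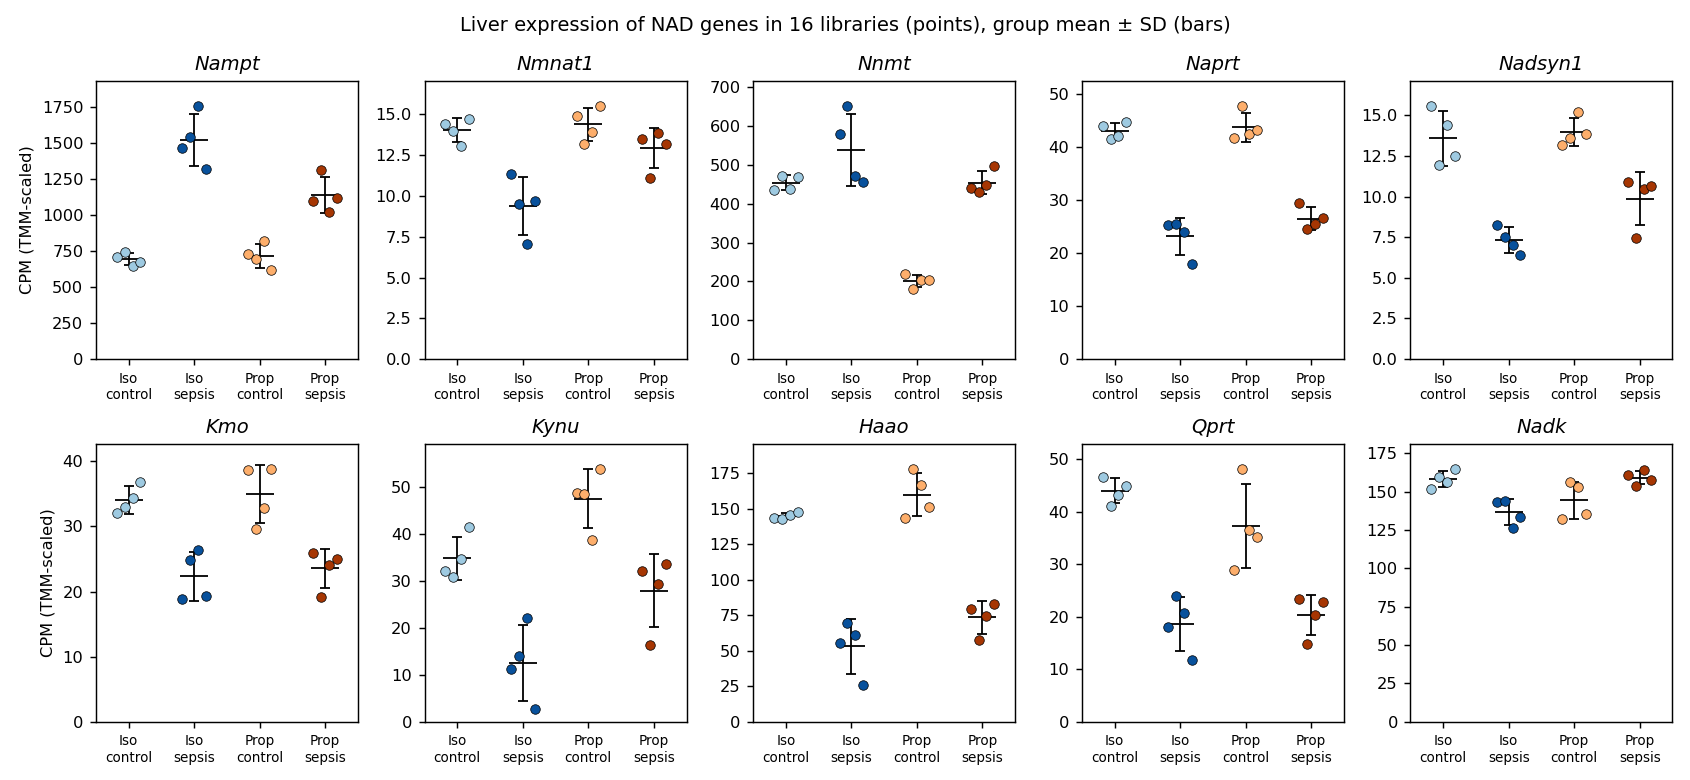
CPM of the 10 genes in each of the 16 libraries (points), with the mean and SD of the 4 libraries of a group (bars); every vertical axis starts at 0 and has its own scale. Nampt rose from means of 691 and 716 CPM in the controls to 1519 (isoflurane) and 1137 (propofol) with sepsis, whereas Nnmt in the Propofol-Control libraries, at a mean of 202 CPM, lay below the other 3 groups.

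In the salvage route, Nampt encodes the rate-limiting enzyme, which joins nicotinamide to a ribose phosphate to form NMN. Nampt stood at 1465, 1540.5, 1753 and 1318 CPM in the Isoflurane-Sepsis libraries and at 709, 739, 643 and 674 CPM in Isoflurane-Control. Under propofol it stood at 1095, 1315, 1019 and 1119.9 CPM with sepsis and at 728.5, 697, 820.1 and 619 CPM in the controls. Every sepsis library lay above every control library, and the lowest Isoflurane-Sepsis library lay just above the highest Propofol-Sepsis library. Nampt was 2.20-fold higher with sepsis under isoflurane (log2 fold change 1.14, SE 0.103, adjusted p = 0.000101) and 1.58-fold higher under propofol (log2 fold change 0.66, SE 0.0999, adjusted p = 0.00073). Without library 10, its change under propofol was 0.59 on the log2 scale (adjusted p = 0.00071).

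Nmnat1 encodes the nuclear enzyme that turns NMN into NAD, a step that all the routes to NAD share in one form or another. Its levels were 11.4, 9.54, 7.04 and 9.67 CPM in Isoflurane-Sepsis against 14.4, 14.01, 13.1 and 14.7 CPM in Isoflurane-Control, with no overlap. In Propofol-Sepsis it was at 13.5, 11.1, 13.9 and 13.2 CPM against 14.9, 13.2, 13.95 and 15.5 CPM in Propofol-Control, so libraries 9 and 11 lay within the controls and libraries 10 and 12 below them. Nmnat1 thus fell by 0.58 on the log2 scale under isoflurane (SE 0.127, adjusted p = 0.00541), while the value under propofol, -0.16, did not pass the test (adjusted p = 0.175).

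The Preiss-Handler route starts with Naprt, which converts nicotinic acid, and ends with Nadsyn1, the NAD synthetase that also completes the kynurenine route. Naprt was at 25.2, 25.4, 23.98 and 17.9 CPM in Isoflurane-Sepsis against 43.9, 41.5, 42.1 and 44.7 CPM in its controls, and at 29.4, 24.5, 25.4 and 26.5 CPM in Propofol-Sepsis against 41.6, 47.6, 42.3 and 43.2 CPM. All 8 sepsis libraries lay below all 8 control libraries. Naprt fell by 0.89 under isoflurane (SE 0.111, adjusted p = 0.000371) and by 0.73 under propofol (SE 0.0765, adjusted p = 0.000122), both on the log2 scale.

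Nadsyn1 followed the same order at 8.28, 7.54, 7.04 and 6.40 CPM in Isoflurane-Sepsis and 15.6, 11.9, 14.4 and 12.5 CPM in Isoflurane-Control. In Propofol-Sepsis it was at 10.9, 7.46, 10.5 and 10.7 CPM, and in Propofol-Control at 13.2, 13.6, 15.2 and 13.9 CPM. Again no sepsis library reached a control library, and library 10 was the lowest of its group. The log2 fold change of Nadsyn1 was -0.89 under isoflurane (SE 0.118, adjusted p = 0.000491) and -0.51 under propofol (SE 0.12, adjusted p = 0.00789), or -0.39 without library 10 (adjusted p = 0.00413).

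The kynurenine route passes from Kmo, which hydroxylates kynurenine at the outer mitochondrial membrane, through Kynu, which cleaves 3-hydroxykynurenine, and Haao, which opens the ring of the product, to Qprt, which joins quinolinic acid to a ribose phosphate. All 4 fell with sepsis under both anesthetics, and Kmo, at the head of the series, had the smallest fitted fall of the 4 under each, a difference between genes that was not tested. The SEs of Kynu and Haao were the widest of the 4 under isoflurane.

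Kmo was at 18.9, 24.8, 26.4 and 19.3 CPM in Isoflurane-Sepsis against 32.0, 33.0, 34.4 and 36.9 CPM in its controls, and at 25.9, 19.2, 24.1 and 25.1 CPM in Propofol-Sepsis against 38.6, 29.6, 32.9 and 38.8 CPM. The groups did not overlap under either anesthetic. Kmo fell by 0.61 (SE 0.127, adjusted p = 0.00437) under isoflurane and by 0.58 (SE 0.116, adjusted p = 0.00346) under propofol on the log2 scale.

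Kynu showed the widest spread. Its levels in Isoflurane-Sepsis were 11.1, 13.98, 22.2 and 2.78 CPM, the last from 46 reads in library 4, against 32.2, 30.9, 34.6 and 41.4 CPM in Isoflurane-Control. In Propofol-Sepsis they were 32.2, 16.4, 29.4 and 33.7 CPM against 48.7, 48.5, 38.8 and 53.8 CPM in Propofol-Control. Library 4 lay far below the rest of its group, library 10 below the rest of its own, and neither group reached its controls. Kynu was 2.75-fold lower with sepsis under isoflurane (log2 fold change -1.46, SE 0.45, adjusted p = 0.024) and 1.70-fold lower under propofol (log2 fold change -0.77, SE 0.199, adjusted p = 0.0121). Without library 4 the isoflurane value was -1.13 (adjusted p = 0.00469), and without library 10 the propofol value was -0.58 (adjusted p = 0.00271). The isoflurane call was lost without library 7 (adjusted p = 0.0526) or library 8 (0.0612), both controls, and the propofol call in a fit of all 16 libraries (0.0972).

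Haao had tight controls under isoflurane, at 143, 143, 146 and 147 CPM, against 55.6, 69.8, 61.3 and 25.6 CPM with sepsis. Its Propofol-Sepsis libraries were at 79.5, 57.3, 74.2 and 83.1 CPM and the Propofol-Control libraries at 144, 178, 167 and 151 CPM. Libraries 4 and 10 were again the lowest of their groups, and sepsis and control were far apart under both anesthetics. Haao was 2.72-fold lower under isoflurane (log2 fold change -1.44, SE 0.256, adjusted p = 0.00197) and 2.18-fold lower under propofol (log2 fold change -1.13, SE 0.118, adjusted p = 0.000122).

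Qprt was at 18.1, 23.9, 20.7 and 11.8 CPM in Isoflurane-Sepsis and at 46.6, 41.0, 43.2 and 44.9 CPM in its controls. Under propofol it was at 23.3, 14.8, 20.3 and 22.9 CPM with sepsis and at 29.0, 48.1, 36.5 and 35.1 CPM without. Sepsis was below control in every library, with a narrow gap under propofol between library 9 and Propofol-Control library 13. Qprt fell by 1.23 under isoflurane (SE 0.183, adjusted p = 0.000844) and by 0.88 under propofol (SE 0.174, adjusted p = 0.00318) on the log2 scale.

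Nadk encodes the cytosolic kinase that makes NADP from NAD, and its levels moved little. They were 143, 144, 126 and 134 CPM in Isoflurane-Sepsis against 152, 159.7, 156 and 165 CPM in its controls, and 160.6, 154, 164 and 158 CPM in Propofol-Sepsis against 132, 157, 153 and 136 CPM. Under isoflurane every sepsis library was below every control, whereas under propofol the groups overlapped. Nadk fell by 0.21 on the log2 scale under isoflurane (SE 0.0658, adjusted p = 0.0264), and its value under propofol was 0.13 (SE 0.0695, adjusted p = 0.144). The isoflurane call did not hold without library 3, 6, 7 or 8 (adjusted p between 0.0517 and 0.0835).

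Nnmt encodes nicotinamide N-methyltransferase, which methylates nicotinamide and so takes it out of the salvage route. In Propofol-Sepsis it was at 440.1, 431, 448 and 497 CPM against 219, 181, 203 and 204 CPM in Propofol-Control, with a wide gap between the groups. In Isoflurane-Sepsis it was at 581, 651, 473 and 455 CPM against 436, 473, 439 and 469.4 CPM in Isoflurane-Control, where libraries 3 and 4 lay among the controls and libraries 1 and 2 above them. Nnmt was 2.24-fold higher with sepsis under propofol (log2 fold change 1.16, SE 0.0747, adjusted p = 1.11e-05), and 1.19 without library 10 on the log2 scale (adjusted p = 9.82e-06). Under isoflurane its log2 fold change was 0.25 (SE 0.115, adjusted p = 0.0966), which passed the test in a fit of all 16 libraries (0.0475) and without library 4 (0.024).

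Leaving out library 10 changed no call of the 10 genes under propofol. The log2 fold changes not yet given were then -0.69 for Naprt, -0.48 for Kmo, -1.02 for Haao, -0.75 for Qprt, -0.09 for Nmnat1 and 0.16 for Nadk. Library 4 was the lowest of its group for Naprt, Nadsyn1, Kynu, Haao and Qprt, and also for Nampt and Nnmt. Without it the log2 fold changes under isoflurane were 1.21 for Nampt, -0.79 for Naprt, -0.83 for Nadsyn1, -1.21 for Haao and -1.07 for Qprt, all still called.

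Whether the effect of sepsis depended on the anesthetic was tested directly as an interaction term over the 16 libraries, coded as the isoflurane response minus the propofol response. Of 10621 genes tested, 2.72% were called, 1.66% as higher and 1.06% as lower. Nnmt was the only one of the 10 genes called: its log2 response to sepsis was smaller under isoflurane, with a difference of -0.92 (SE 0.143, adjusted p = 0.0101), and it stayed below 0.05 in every alternative run (adjusted p between 9.87e-07 and 0.0267). Nampt had a larger rise under isoflurane by 0.47 (SE 0.145, adjusted p = 0.0808), which did not pass the test, though it did with DESeq2 (0.0359) and without library 1, 4 or 10 (between 0.0448 and 0.0478). Nadk differed by -0.35 (SE 0.0946, adjusted p = 0.0584), past the threshold with DESeq2 (0.00617) and without library 1 (0.0207). Nmnat1, at -0.43 (SE 0.165, adjusted p = 0.142), passed only without library 1 (0.0302).

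The remaining 6 genes, the Preiss-Handler and kynurenine-route enzymes, had interaction values between -0.71 (Kynu, SE 0.505, adjusted p = 0.401) and -0.04 (Kmo, SE 0.175, adjusted p = 0.904). Without library 10 the interaction values were -0.94 for Nnmt (adjusted p = 0.0161) and 0.55 for Nampt (0.0469), both called, and -0.37 for Nadk (0.053), -0.49 for Nmnat1 (0.0882), -0.50 for Nadsyn1 (0.0609) and between -0.89 (Kynu, 0.263) and -0.13 (Kmo, 0.652) for the other 5, none called. With all libraries the values of these 6 genes were below 0, but none passed the test in any alternative run, and that of Kmo changed sign in some of them. These SEs leave room for differences of some size, so a like response under the anesthetics was not shown either. The median interaction value was -0.36 over the 10 genes and -0.016 over all genes tested.

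**Figure D2:**
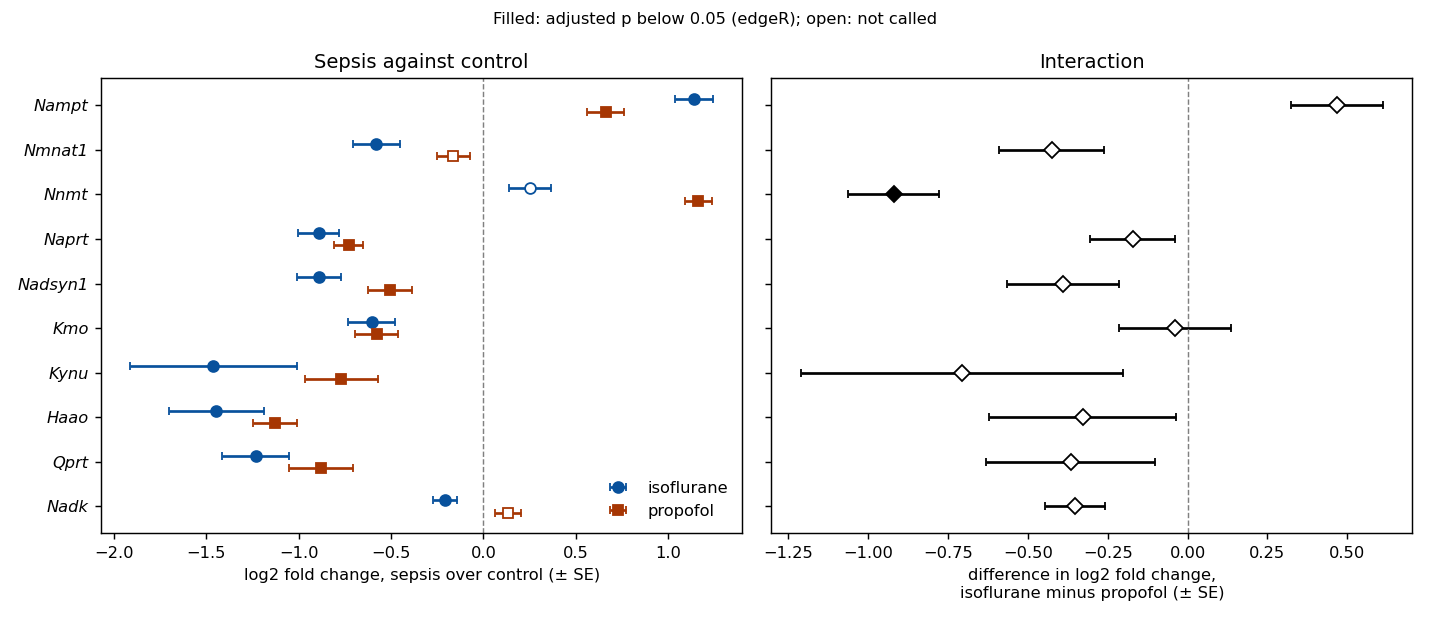
Log2 fold change of sepsis over control under isoflurane (circles) and propofol (squares) on the left, and the interaction (isoflurane minus propofol) on the right, for the 10 genes; bars are ± 1 SE and filled symbols passed an adjusted p below 0.05 in edgeR. The interaction of Nnmt, at -0.92, is the only filled one.

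The anesthetics were then compared within controls and within sepsis, in the same fit of 16 libraries. These comparisons use the libraries of those above and are not independent of them. In controls, 26.3% of genes were called (13% higher under isoflurane, 13.3% lower), and of the 10 genes Nnmt alone was: it was 2.25-fold higher in Isoflurane-Control than in Propofol-Control (log2 fold change 1.17, SE 0.102, adjusted p = 6.53e-06), in every library. The other 9 overlapped between the controls, with log2 values between -0.45 (Kynu, adjusted p = 0.372) and 0.24 (Qprt, adjusted p = 0.359). In a fit of the 8 control libraries alone Kynu, at -0.44, was called lower under isoflurane (adjusted p = 0.00891). Groups did not overlap for 39.7% of all genes tested.

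Within sepsis, 38.6% of genes were called, 19.6% as higher and 19.0% as lower under isoflurane. Nampt was higher in Isoflurane-Sepsis by 0.42 (SE 0.103, adjusted p = 0.0057), and 4 of the 10 genes were lower there, with log2 values of -0.43 for Nadsyn1 (adjusted p = 0.0145), -1.15 for Kynu (0.0225), -0.46 for Nmnat1 (0.00753) and -0.22 for Nadk (0.0179). Only Nampt and Nadk did not overlap between these groups, against 25.1% of all genes. For Naprt, Nadsyn1, Kynu, Haao and Nmnat1, library 10 was the only Propofol-Sepsis library that did not lie above every Isoflurane-Sepsis library. The share over all genes without library 10 was not computed. Without library 10 the log2 values were 0.50 for Nampt (adjusted p = 0.00204), -0.54 for Nadsyn1 (0.00154), -1.34 for Kynu (0.0101), -0.52 for Nmnat1 (0.00374) and -0.23 for Nadk (0.0193), all still called. Those of Naprt, Kmo, Qprt and Nnmt were between -0.25 (Qprt, 0.307) and 0.23 (Nnmt, 0.117), none called. In a fit of the 8 sepsis libraries alone Nampt stayed past the threshold, while Nadsyn1 (0.0645), Kynu (0.112), Nmnat1 (0.0564) and Nadk (0.0611) did not. Kynu also lost its call without library 9 (0.0522) or 12 (0.0616), and Nadk without library 3 (0.0559). Nnmt, at 0.25, was not called (adjusted p = 0.0618), but passed with DESeq2 (0.0363) and without library 3 (0.0354) or 4 (0.0183). Haao, at -0.47 (adjusted p = 0.0854), passed without library 2 (0.0388) or 10 (0.0461) and with library totals in place of TMM (0.0275). With library totals Naprt also passed (-0.34, adjusted p = 0.0108).

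The order of the 4 groups therefore differed by gene. Nampt was highest in Isoflurane-Sepsis, then Propofol-Sepsis, with the overlapping controls lowest. Nnmt had overlapping levels in Isoflurane-Sepsis (mean 540.0 CPM), Isoflurane-Control (454) and Propofol-Sepsis (454), and a separate, low level in Propofol-Control (202). Naprt, Nadsyn1, Kmo, Haao and Qprt had overlapping controls above overlapping sepsis groups. The sepsis groups of Naprt, Nadsyn1 and Haao overlapped through library 10 alone. For Kynu and Nmnat1 every neighbour in the order overlapped, from Propofol-Control through Isoflurane-Control and Propofol-Sepsis to Isoflurane-Sepsis. The overlap of their sepsis groups also came from library 10 alone. That library was singled out after the data were seen, and the share of all genes that overlapped through it alone was not computed. With all libraries, the sepsis groups did not overlap for 25.1% of all genes tested.

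Read ratios within a library do not move with scaling, and were described without a test. The log2 ratio of Nampt to Nnmt reads averaged 0.60 ± 0.083 (SD, n = 4) in Isoflurane-Control and 1.5005 ± 0.288 in Isoflurane-Sepsis, without overlap, so it was higher with sepsis. Under propofol it went the other way, from 1.82 ± 0.191 in the controls to 1.32 ± 0.203 with sepsis, where library 10 (1.61) just passed the lowest control, library 16 (1.60). The log2 ratio of Kmo to Haao reads was -2.09 ± 0.0689 and -2.20 ± 0.326 in the isoflurane and propofol controls and -1.17 ± 0.529 and -1.64 ± 0.0644 with sepsis. It was higher in every sepsis library than in every control library, and library 4, at -0.41, was the highest. The log2 ratio of Kynu to Qprt reads was 0.37 ± 0.372 in Propofol-Control and 0.43 ± 0.19 in Propofol-Sepsis, with overlap, and -0.35 ± 0.176 and -0.87 ± 0.906 in Isoflurane-Control and Isoflurane-Sepsis, where library 3 lay above the controls and the other 3 below them.

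**Figure D3:**
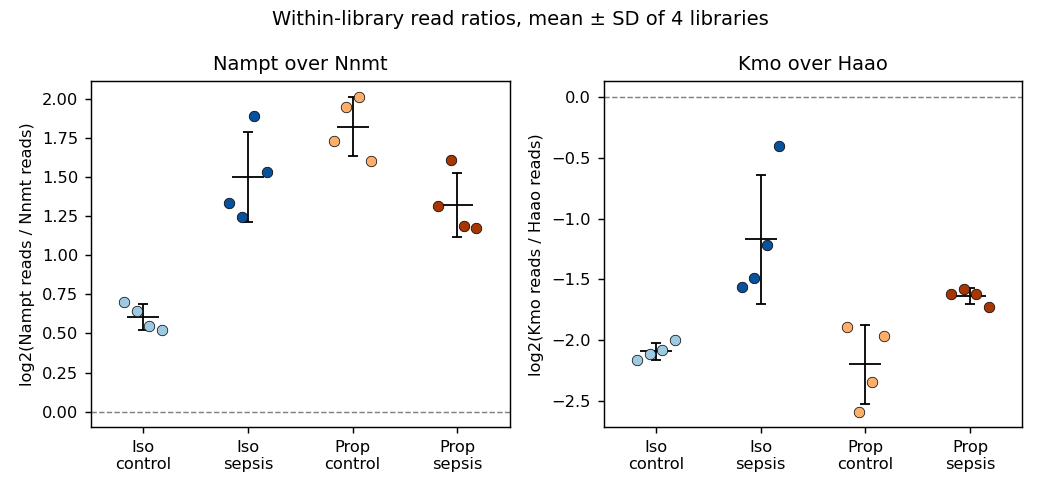
Log2 ratio of reads within each of the 16 libraries (points) for Nampt over Nnmt and for Kmo over Haao, with the mean and SD of the 4 libraries of a group. The Nampt over Nnmt ratio averaged 0.60 in Isoflurane-Control and between 1.32 and 1.82 in the other groups, and the Kmo over Haao ratio was higher in all sepsis libraries than in all controls.

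Other genes of NAD metabolism were counted from 4 lists, and named where called with a log2 fold change of at least 1 in size under either anesthetic. Over all genes tested, 25.7% were called higher and 24.4% lower under isoflurane, and 20.4% and 21.7% under propofol. The counts of all 4 lists stand beside these shares. Of the upstream enzymes and side branches of the kynurenine route, 6 were tested, and 1 rose and 4 fell under isoflurane, against 1 and 2 under propofol. Their median log2 fold change was -0.67 under isoflurane and 0.06 under propofol. Ido1, the tryptophan-cleaving enzyme of immune cells, had 0 reads in all 16 libraries, a count that allows up to 3 reads per library at this depth. Afmid, which frees kynurenine from formylkynurenine, fell by 1.31 (adjusted p = 0.00994) under isoflurane and by 1.66 (adjusted p = 0.000323) under propofol.

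Acmsd diverts the route away from NAD towards full oxidation. It averaged 12.7 ± 0.836 CPM in Isoflurane-Control, 5.86 ± 1.82 in Isoflurane-Sepsis, 4.09 ± 0.932 in Propofol-Control and 4.34 ± 0.947 in Propofol-Sepsis (SD, n = 4 each). It fell by 1.12 (SE 0.21, adjusted p = 0.00263) under isoflurane, and its value under propofol was 0.08 (adjusted p = 0.791). The interaction was -1.20 (SE 0.308, adjusted p = 0.0496), a call lost in 17 of 24 alternatives (adjusted p between 0.00874 and 0.102). Acmsd was 3.12-fold higher in Isoflurane-Control than in Propofol-Control (adjusted p = 0.000129).

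Of the other salvage enzymes, the mitochondrial NAD kinase and carriers, 9 were tested: 1 rose and 5 fell under isoflurane, and 1 rose and 8 fell under propofol, with medians of -0.78 and -0.88. Nmnat3, the mitochondrial counterpart of Nmnat1, fell by 1.02 (adjusted p = 0.000747) and 0.64 (adjusted p = 0.0117). Nudt12, which splits NADH in peroxisomes, fell by 1.66 (adjusted p = 0.000393) and 1.08 (adjusted p = 0.000244). Aox3, an aldehyde oxidase, fell by 1.37 (adjusted p = 0.0206) and 2.29 (adjusted p = 9.41e-05), though reads of Aox1 and Aox3 can be split between near copies and the isoflurane call was lost without library 6 (0.0526) or 7 (0.0533). Slc5a8, a sodium-coupled carrier of short monocarboxylates and nicotinate, was the riser of the list: it averaged 7.59 ± 4.36 CPM in Isoflurane-Sepsis against 0.937 ± 0.473 in Isoflurane-Control (log2 fold change 2.97, adjusted p = 0.00132). Under propofol it had 243 reads with sepsis and 3 in the controls, a ratio of 67.2 with a 95% counting interval of 22.7 to 328.3 (exact Clopper-Pearson, counting error only). Of the 243 reads, 128 were from library 10, against 21, 53 and 41 in the other Propofol-Sepsis libraries. Without library 10 the ratio was 41.2 (95% counting interval 13.8 to 202.9) and the fitted log2 fold change was 5.21 (adjusted p = 0.000317) in place of 5.95. Library 15 held 2 of the 3 control reads, and without it the ratio was 144.9 (25.8 to 5746.5). Nmnat2, a neuronal form, had 24 reads in library 10 and at most 2 in any other library.

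Of the enzymes that consume NAD, 15 were tested, with 4 risen and 6 fallen under isoflurane, 3 and 5 under propofol, and medians of -0.37 and -0.24. The shares risen and fallen over all genes were 25.7% and 24.4% under isoflurane, and 20.4% and 21.7% under propofol. Cd38, an NAD glycohydrolase of the cell surface, rose by 1.31 (SE 0.162, adjusted p = 0.000364) and 0.84 (SE 0.118, adjusted p = 0.0005). Its relative Bst1 rose by 2.28 (adjusted p = 0.0034) under isoflurane from low levels, 0.328 ± 0.164 to 1.63 ± 0.739 CPM, and its value under propofol was 0.79 (adjusted p = 0.109). Sirt3, the main mitochondrial deacetylase, fell by 1.32 (adjusted p = 0.000739) and 0.83 (adjusted p = 0.000156).

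Of 6 enzymes of NAD and NADP redox turnover, 3 fell under isoflurane and 4 under propofol. Idh1, the cytosolic isocitrate dehydrogenase, which makes NADPH, fell by 1.63 (adjusted p = 0.000197) and 1.54 (adjusted p = 6.76e-05). Of the genes of the 4 lists tested for the interaction (6, 9, 15 and 6), Acmsd was the only one called. Over all genes tested, 2.72% were called, so this 1 call is close to that share and does not set the lists apart.

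**Figure D4:**
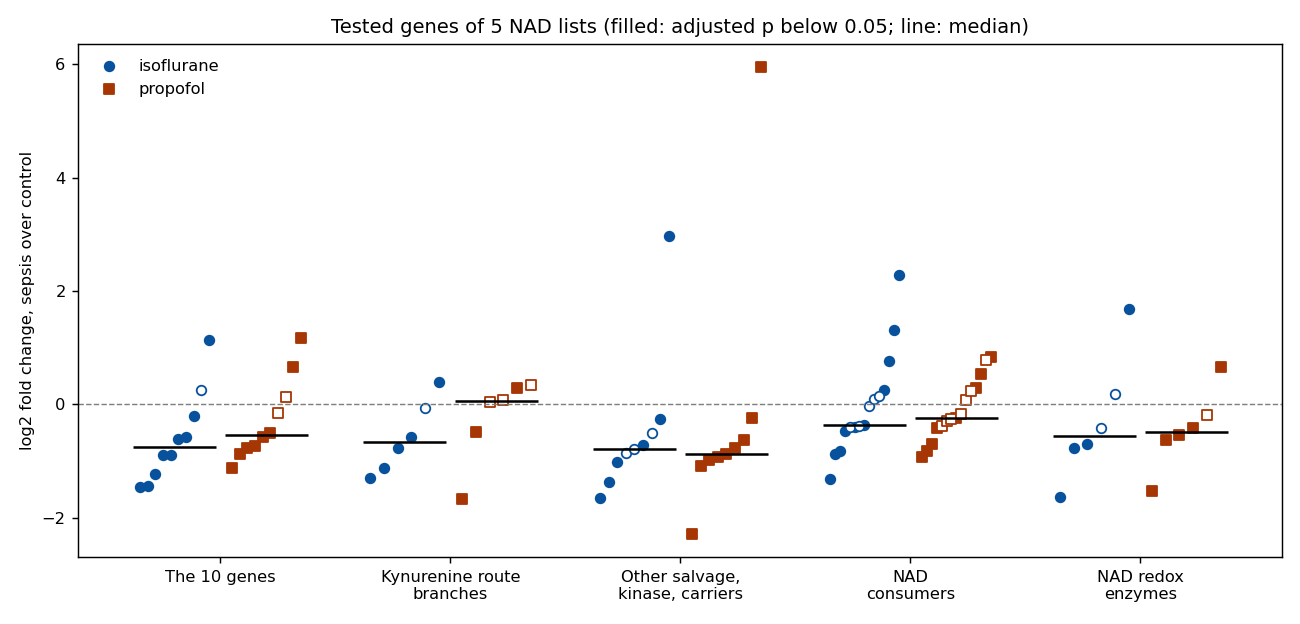
Log2 fold change of sepsis over control for each tested gene of the 10 described here and of the 4 other lists, under isoflurane (circles) and propofol (squares); filled symbols passed an adjusted p below 0.05 and horizontal lines are medians. The medians of the 10 genes are -0.75 and -0.54, and the highest symbols in the third column are Slc5a8.

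Markers of other cell types moved with sepsis, and their part in these results was not tested. Over all genes, 25.7% were called higher and 24.4% lower under isoflurane, and 20.4% and 21.7% under propofol. Of 13 markers of neutrophils and inflammatory monocytes, 12 were listed and none was at 0 throughout a group. Their summed level was between 148 and 201 CPM in Isoflurane-Control and between 1259 and 2078 in Isoflurane-Sepsis, and between 388 and 645 CPM in Propofol-Control and between 1159 and 3283 in Propofol-Sepsis. Lcn2, which hepatocytes also make in inflammation, gave between 88.2% and 98.7% of that sum in every library. The other 11 markers, summed alone after the data were seen, came to between 16.6 and 18.8 CPM in Isoflurane-Control, 36.6 and 118.8 in Isoflurane-Sepsis, 17.8 and 25.7 in Propofol-Control and 38.4 and 55.9 in Propofol-Sepsis. Within sepsis S100a8 (log2 difference 1.00, adjusted p = 0.00905), S100a9 (0.98, 0.00846) and Itgam (0.80, 0.0196) were higher under isoflurane, while Lcn2 was at -0.62 (adjusted p = 0.0747). Of those tested, 6 of 7 rose with sepsis under isoflurane and 6 of 8 under propofol. The 8 hepatocyte markers summed to between 122210 and 131010 CPM in Isoflurane-Control, 100290 and 113340 in Isoflurane-Sepsis, 89564 and 100020 in Propofol-Control and 82065 and 91656 in Propofol-Sepsis. Alb made up most of these sums. Of the 8, 3 fell and 0 rose under each anesthetic. Hnf4a was among those that fell, by 1.06 (adjusted p = 0.000155) under isoflurane and 0.73 (5.63e-05) under propofol. Among 9 Kupffer cell and macrophage markers 6 rose and 1 fell under isoflurane, and 2 rose and 1 fell under propofol. Of 5 endothelial markers 3 fell under isoflurane, while 1 rose and 2 fell under propofol. Of 4 stellate cell markers 1 rose and 1 fell under isoflurane and 2 fell under propofol. Of 2 cholangiocyte markers and 1 lymphocyte marker tested, 1 each rose under isoflurane and 0 under propofol, and the lymphocyte marker Klrb1 was at 0 in both isoflurane groups. In whole liver, fewer cells of a type and less RNA per cell cannot be told apart.

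The genes most like each of the 10 across libraries were listed by Pearson's r of log2 CPM over the 16 libraries, searching 8893 genes whose mean log2 CPM was 1 or more. These values describe points that share group, library and depth. For Nampt they were Kdm1a (0.985), Itpkc (0.969) and Nup155 (0.963), and for Nnmt they were Capza1 (0.971), Spryd3 (0.957) and Ap3d1 (0.955). Naprt went with Stard10 (0.99), Rcbtb2 (0.989) and Rbp4 (0.984), and Nadsyn1 with Cog4 (0.975), Coq9 (0.973) and Pion (0.972). Qprt went with Bhmt2 (0.98), Ftcd (0.974) and Bphl (0.971), Haao with Aspdh (0.987) and Alkbh2 (0.986), and Kynu with Gckr (0.963), Dao (0.962) and Fbxo31 (0.947). Kmo went with Gprc5c (0.955), Prodh2 (0.943) and Anpep (0.94), and Nmnat1 with Snx19 (0.971), Ganab (0.963) and Kbtbd3 (0.959). For Nadk no gene passed 0.817 (Aurkaip1), followed by Clcn3 (0.813) and RGD1307235 (0.807).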

How the data were processed

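Polyadenylated RNA of 16 liver pools was made into strand-specific libraries. For each library the authors deposited counts, whole and not normalized, for 17055 gene symbols. The submitters' processing notes name STAR and the rn5 build, while the sources used here do not give the counting program or annotation. Entries for reads outside genes (21.61% to 25.39% of reads) and ambiguous reads (1.074% to 1.351%) entered neither library sizes nor tests.

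Groups came from the sample labels. For each anesthetic, the 8 libraries were fitted alone with edgeR 4.0.16 (R 4.3.3) and its quasi-likelihood test, using TMM scaling and filterByExpr (minimum count 10, minimum total count 15), and Benjamini-Hochberg adjustment over every gene tested. The interaction and the comparisons of anesthetics came from a fit of all 16 libraries, which shares 1 estimate of the spread. The fits were also run on simulated counts with 1 spread per gene for all groups. That run cannot show how the fits behave where groups differ in spread. TMM factors lay between 0.9204 and 0.9786 in the isoflurane libraries and between 1.024 and 1.094 in the propofol libraries. Scaling thus differed between the anesthetics without overlap. Within groups, the chi-square per degree of freedom of 24 pairs of libraries was between 3.469 and 101.7, so no library was taken for a copy of another. Replicates are pools of different rats.

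Alternatives were RLE size factors, library totals, DESeq2 1.42.0, limma-voom (limma 3.58.1), other filters, thinned counts, a threshold of 0.01, other sets of libraries in the fit, and each library left out in turn. All 10 genes were named, and genes of the other lists were named where called with a log2 fold change of at least 1 or at most -1 under either anesthetic, except for results not reported here. The genes, lists and tests were chosen with earlier results of these data known. Kyat1, Kyat3, Nadk2, Slc25a51 and Adgre1 were taken under the older symbols Ccbl1, Kat3, Nadkd1, Mcart1 and Emr1. Ido2, Nmrk2, Sirt1, Parp4, Parp10, Parp12, Pgd and 6 cell type markers were not analysed here. Promoter sequences are from RefSeq (GRCr8), another build than that of the files, and were matched by symbol.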

Additional observations from a re-analysis of the deposited data

Results flagged for a closer look

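Nadsyn1 in Propofol-Sepsis library 10, at 7.463 CPM, lay far below the other 3 libraries of its group. Its gap to the nearest of them was 0.876 of the group's range, above Dixon's 95% critical value for 4 libraries. It was the only such value among 40 groups examined, the 10 genes in each of 4 groups, and chance flags about 1 group in 20. This is also the library with the brain mRNAs, and any link to the Nadsyn1 value was not tested.

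The response of Nnmt to sepsis differed between the anesthetics by the interaction test, at -0.92 on the log2 scale (adjusted p = 0.0101, edgeR). Acmsd also differed by that test, at -1.20 (adjusted p = 0.0496), and did not keep its call in 17 of 24 alternatives. Over all genes tested, 2.72% were called by that test.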

How the results depend on the processing

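In the sepsis comparisons every fold change of the 10 genes kept its direction in all alternatives run. No paired analysis was possible because the labels number the libraries 1 to 16 and no number is shared between groups. Library totals in place of TMM shifted the median of all genes by -0.145 (controls) and -0.149 (sepsis) in the comparisons of anesthetics, and the share of calls that were higher went from 49.4% to 19.6% and from 50.9% to 24.9%, and under propofol from 48.4% to 38.3%. Calls of all genes, higher and lower, were then 688 and 2814 in controls and 1151 and 3463 in sepsis. With 8 libraries in a fit of their own these were 2225 and 2243, and 1092 and 890. At an adjusted p below 0.01 the calls were 1665 and 1535 (isoflurane), 1254 and 1374 (propofol), 5 and 4 (interaction), 723 and 732 (controls), and 1203 and 1025 (sepsis). Interaction calls, 176 and 113, were 506 and 341 with DESeq2, 101 and 67 without a filter on low counts, and 88 and 57 with thinned counts. Of the 10 genes, 2 were called higher under isoflurane in the fit of 16 libraries, and in the interaction 1 higher and 2 lower with DESeq2 and 0 lower at 0.01. In controls 1 (Kynu) was lower in a fit of 8. In sepsis 2 were higher with DESeq2, and 0 (fit of 8) or 1 (0.01) lower. Leaving out 1 library at a time gave 1 to 2 higher and 6 to 8 lower under isoflurane, 2 and 6 under propofol, 0 to 1 and 1 to 3 in the interaction, 1 and 0 in controls, and 1 to 2 and 3 to 5 in sepsis. Over all genes it gave 2133 to 2945 and 2012 to 2723, 1691 to 2074 and 1810 to 2217, 29 to 865 and 25 to 750 (most without library 1), 1006 to 1595 and 1023 to 1634, and 1585 to 2359 and 1483 to 2363. Values near 0 that changed sign were, with thinned counts, Kmo in the interaction (0.0257) and Nadsyn1 in controls (0.028), and with library totals Nadk in controls (-0.0121). With libraries left out, the ranges that crossed 0 were -0.1323 to 0.034 (Kmo) and -0.3246 to 0.0364 (Idh1) in the interaction, -0.0479 to 0.1966 (Acmsd) under propofol, -0.2572 to 0.0379 (Qprt) in sepsis, and, in controls, -0.1149 to 0.0208 (Nampt), -0.0431 to 0.0229 (Naprt), -0.1119 to 0.0145 (Nadsyn1), -0.1093 to 0.0164 (Kmo) and -0.0721 to 0.0046 (Nmnat1). The cause was not tested. At 4 libraries against 4 an exact two-sided permutation test cannot give a p below 0.0286.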
